A study of Phragmites australis with 7 samples.

Results

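PaChr22.189, PaChr1.370 and PaChr21.95 are 3 of the 42095 features counted in single cells of the common reed, Phragmites australis. They were chosen because their counts were higher in libraries of the North American invasive population (NAint) than in those of the European population (EU), although their names place them on regular chromosomes and not on the B chromosome. The difference between the populations is therefore how the genes were found, and it is given here as a description with no test. Single-cell libraries came from 6 untreated plants kept in a common garden, the invasive NAint61, NAint113 and NAint191 and the European EU60, EU78 and EU620, with 1 library of pooled buds from each individual. The labels place NAint113, EU60 and EU78 in batch 1, NAint191 and EU620 in batch 2 and NAint61 alone in batch 3. The tissue is labelled as shoot, while the extraction protocol speaks of the tip of the rhizome. A spatial transcriptome was made from 1 section of a bud of NAint61, and it has no replicate. The section is labelled batch 1, unlike the single-cell library of NAint61.

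B chromosomes are extra chromosomes that some individuals of a species carry beside the regular set and that the plant can do without. PaChr21.95 is the only member with an annotation in the sources used here: its best hit in Arabidopsis is AT4G33355, which encodes a lipid transfer protein. Non-specific lipid transfer proteins are small, secreted, cysteine-rich proteins that bind lipids, and in many plants they are abundant in the epidermis, where the waxes and cutin of the cuticle are laid down. PaChr22.189 and PaChr1.370 had no annotation, so neither a name nor a role is given for them. Where near-identical copies of a gene exist, reads can be split between them, and this was not examined here because no sequence was at hand.

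After filtering, 57798 cells remained, between 6478 and 13189 per plant, with 74783734 to 123286762 unique molecular identifiers (UMIs, each standing for 1 captured transcript) per library. Median UMIs per cell lay between 5971 in NAint113 and 11613 in EU620. Levels are given as CPM, the UMIs of a gene per 1000000 UMIs of the cells it was summed over. Summed over pairs of libraries, 490 barcodes occurred in 2 libraries. For scale, the B chromosome genes PaChr24.43, PaChr24.82, PaChr24.218 and PaChr24.240 lay between 17.1 and 207 CPM in the 3 invasive plants and between 0.00999 and 1.01 CPM in the 3 European ones.

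PaChr22.189 was present throughout the invasive shoots and close to absent from the European ones. It had 41.7, 16.9 and 27.6 CPM in NAint61, NAint113 and NAint191, against 0.223, 0.0568 and 0.0200 CPM in EU60, EU78 and EU620. These levels rest on 3115, 1735 and 2364 UMIs in the invasive plants and on 26, 7 and 2 UMIs in the European plants. The groups did not overlap, and the lowest invasive plant lay 76.1 times above the highest European one. The means were 28.7 ± 12.4 CPM in NAint and 0.0998 ± 0.108 CPM in EU (SD, n = 3 each), a ratio of 288. Between plants of batch 1 the ratio was 121, and between those of batch 2, where EU620 had 2 UMIs, it was 1383 with a 95% counting interval of 382 to 11424. Cells were also thinned to 2000 UMIs, which left out the 1062 to 2224 cells of a plant that held fewer. Of the cells that remained, 8.11%, 3.356% and 5.225% of those of NAint61, NAint113 and NAint191 held the transcript, against 0.0530% of those of EU60 and 0.0194% of those of EU78, while in EU620 it was found in 0 of 5416 cells, which allows a share of up to 0.0554%.

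The few European UMIs of PaChr22.189 were unevenly spread. They came from 18 cells, and 25 of the 35 UMIs lay in 8 cells of the differentiating vasculature, as named by the markers of the study. A single cell of EU60 with 34952 UMIs in all held 14 of the 26 UMIs of that plant. None of the 18 cells had a UMI of the 4 B chromosome genes. Such UMIs were also rare in the other cells, found in 1.43% of those of EU60, 0.296% of EU78 and 0.371% of EU620. At these shares 18 cells are too few to show a difference. In NAint61, NAint113 and NAint191, 94.2%, 91.2% and 91.4% of the cells with PaChr22.189 had at least 1 UMI of those 4 genes, against 67.1%, 74.3% and 77.5% of the cells without it. The cells with PaChr22.189 were deeper in each of these plants, with medians of 12382, 9254 and 12082 UMIs against 6067, 5682 and 6868 UMIs, and the part of depth in this difference was not tested.

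PaChr1.370 was present in both populations at low levels. It had 15.06, 12.5 and 36.4 CPM in NAint61, NAint113 and NAint191, against 1.67, 0.649 and 4.65 CPM in EU60, EU78 and EU620. The groups did not overlap, but the gap was narrow, as NAint113 lay 2.68 times above EU620. The means were 21.3 ± 13.15 CPM in NAint and 2.32 ± 2.08 CPM in EU (SD, n = 3 each), a ratio of 9.176, and the ratio was 10.773 within batch 1 and 7.83 within batch 2. The plants of batch 2 were the highest of their population, NAint191 by 2.92 times over NAint113 and EU620 by 4.01 times over the mean of EU60 and EU78. In cells thinned to 2000 UMIs, 2.54%, 2.35% and 5.82% of those of NAint61, NAint113 and NAint191 held the transcript, against 0.403%, 0.155% and 0.812% of those of EU60, EU78 and EU620.

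PaChr21.95, the lipid transfer protein gene, was the most abundant of the members and the least clearly divided. It had 75.9, 20.9 and 208 CPM in NAint61, NAint113 and NAint191, against 8.99, 6.895 and 27.4 CPM in EU60, EU78 and EU620. The groups overlapped, because NAint113 lay below EU620, so the label of a gene high in the invasive plants holds for their mean and not for every plant. The means were 101.5 ± 95.96 CPM in NAint and 14.43 ± 11.3 CPM in EU (SD, n = 3 each), a ratio of 7.03. NAint113 had 2.62 times the mean level of EU60 and EU78 in batch 1, and NAint191 had 7.58 times the level of EU620 in batch 2. NAint191 lay 9.96 times above NAint113, and EU620 lay 3.45 times above the mean of EU60 and EU78, so that batch 2 was the higher batch in both populations. The shares of cells thinned to 2000 UMIs were 7.30%, 3.101% and 15.7% in NAint61, NAint113 and NAint191, against 1.70%, 1.36% and 3.77% in EU60, EU78 and EU620. Single cells held up to 121 UMIs of this gene in NAint191 and up to 87 in EU620.

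**Figure D1:**
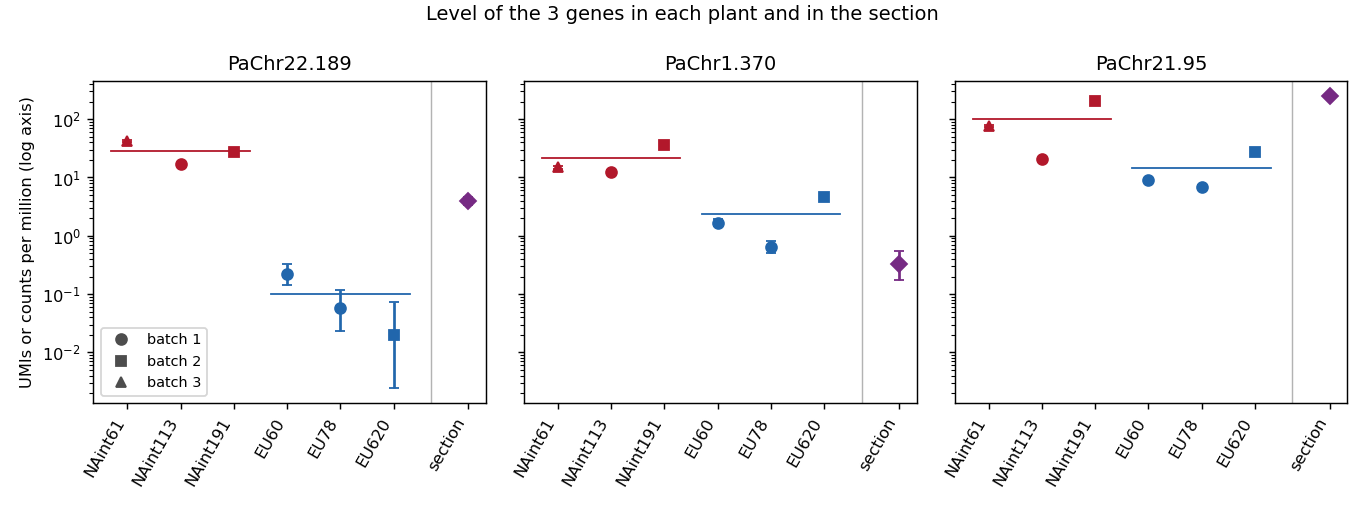
CPM (log axis) of each member in the 3 invasive plants (red), the 3 European plants (blue) and the section of NAint61 (purple); marker shapes give the batch, horizontal lines the group means and bars 95% Poisson intervals, which cover counting error only. PaChr22.189 and PaChr1.370 separate the groups, while PaChr21.95 was lower in NAint113, at 20.9 CPM, than in EU620, at 27.4 CPM.

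Cell types that lack these genes are not known, so free RNA in the droplets could not be gauged from one. As a measure of it, the lowest share over the cell types of a plant can be set beside the highest, in cells thinned to 2000 UMIs. For PaChr22.189 in NAint61 the share was 24.20% of the 219 of 521 cells of parenchyma 1 that held 2000 UMIs or more, with a median of 3135 UMIs before thinning, and 3.25% of those named vascular tissue, whose median was 16608 UMIs. For PaChr21.95 in NAint191 it was 27.8% of epidermal cell 2, with a median of 13656 UMIs, and 6.55% of xylem, with a median of 12084 UMIs. For PaChr1.370 in NAint61 it was 5.04% of phloem 1, with a median of 11899 UMIs, and 0.422% of xylem, with a median of 7386 UMIs. These extremes were picked after ranking the cell types of 1 library, and their difference was not tested. That of PaChr1.370 in xylem rests on 1 of 237 cells. For PaChr22.189 in NAint113 the extremes were 5.56% of 54 cells in G2/M phase and 1.79% of 223 meristematic cells. A low share in a cell type may hold free RNA, whose part was not tested.

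Across the whole shoot, 2 of the 3 members had every invasive plant above every European plant, which 3.49% of the 33266 genes tested did, while 2.76% had every invasive plant below. Adjusted for sequencing depth per cell, edgeR called 0.018% of all genes higher and 0.00301% lower in NAint, and DESeq2 called 1.6% higher and 1.23% lower. Since the members were picked on this contrast, no test of theirs is given for it and nothing is read from these counts. The fitted log2 fold changes (NAint over EU, edgeR) were 8.08 ± 0.90 for PaChr22.189, 3.948 ± 0.75 for PaChr1.370 and 3.40 ± 0.83 for PaChr21.95 (SE). Leaving out 1 plant at a time gave 7.378 (without EU620) to 9.32 (without EU60) for PaChr22.189 and 3.2707 (without NAint191) to 4.50 (without NAint61) for PaChr1.370. For PaChr21.95 the value was 2.09 without NAint191 and 2.15 with the batch label as a factor in place of the covariate.

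The genes next to the members by number did not share their pattern as a block. Of the 6 neighbours of PaChr22.189, PaChr22.192 had 50.9, 18.4 and 46.3 CPM in NAint61, NAint113 and NAint191, against 14.07, 9.32 and 29.4 CPM in EU60, EU78 and EU620, and its groups overlapped. PaChr22.191, the most abundant of them, had 171, 95.1 and 82.2 CPM in the invasive plants, against 94.4, 122.7 and 76.1 CPM in the European ones. The 6 neighbours of PaChr1.370 stayed at or below 8.57 CPM in every plant, and the 6 of PaChr21.95 at or below 17.1 CPM. Only PaChr1.368, with 3 to 17 UMIs per plant, had groups that did not overlap. PaChr21.94, also annotated as a lipid transfer protein gene, directly precedes PaChr21.95 and had 0.401, 0 and 0.0467 CPM in NAint61, NAint113 and NAint191, against 0.188, 0.243 and 0.779 CPM in EU60, EU78 and EU620. Of the neighbours tested, edgeR called 0 in either direction, with 1 of 14 at an unadjusted p under 0.05, as were 10.0% of all genes. DESeq2 called PaChr22.192 higher in NAint by 1.45 on the log2 scale (adjusted p = 0.0335).

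To see where in the shoot the genes were active, cells were clustered without the members among the genes used, and clusters were named from marker genes that the study found in these same samples. Of 31 clusters 28 took a name, and 3 clusters with 8.69% of the cells stayed unnamed. Since the clusters come from other genes of the same cells, the tests below compare groups of cells that the data defined.

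PaChr22.189 was found in every named cell type of the invasive plants, with the highest mean in parenchyma 1. There it had 183, 36.7 and 83.6 CPM in NAint61, NAint113 and NAint191, a mean of 100.97 ± 74.5 CPM (SD, n = 3). This was the shallowest of the 31 clusters, with a median of 1616 UMIs per cell and a depth 0.209 times that of the plants, and 2 of its 10 leading genes lay on unplaced scaffolds. It took its name because a single marker of parenchyma 1, PaChr10.340, was among those genes, which also held the chlorenchyma marker PaChr4.1186. The 2 other shallow clusters, whose leading genes held no marker of their best list, stayed unnamed. The part of depth in the level in parenchyma 1 was not tested. The 435 UMIs found there made up 6.03% of the invasive UMIs of the gene, against 1.82% of the UMIs of all genes. The means of the other named cell types lay between 17.9 ± 2.78 CPM in bundle sheath cells and 38.6 ± 30.7 CPM in ground meristem, and neighbours in this order differed by less than their SD. In the European plants the differentiating vasculature came first, with 6.62, 0.526 and 0 CPM in EU60, EU78 and EU620. No other European cell type held more than 3 UMIs.

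PaChr1.370 had its highest mean in ground meristem in both populations. Its level there was 31.3, 57.9 and 81.5 CPM in NAint61, NAint113 and NAint191, against 10.2, 5.123 and 5.18 CPM in EU60, EU78 and EU620. Ground meristem is the young tissue from which cortex and pith develop. In the European plants its mean of 6.85 ± 2.94 CPM was followed by that of meristematic cells at 6.22 ± 8.33 CPM, within the SD, and in EU620 meristematic cells, at 15.7 CPM, lay above ground meristem. Means of meristematic cells, phloem 2 and differentiating vasculature followed at 31.6 ± 35.01, 29.4 ± 32.2 and 29.3 ± 37.3 CPM in NAint and cannot be ordered within these SDs. The lowest level in both populations was that of protoderm 2, with 5.39 ± 5.24 CPM in NAint and 0.352 ± 0.310 CPM in EU (SD, n = 3 each).

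PaChr21.95 had its highest means in cells without a name, 348 ± 190 CPM in NAint and 81.8 ± 24.5 CPM in EU (SD, n = 3 each). Of the 4278 invasive UMIs in these cells 3252 came from 1 unnamed cluster of 642 cells, whose marker score did not reach the limit set for a name. In that cluster the level was 921.9, 528 and 1140 CPM in NAint61, NAint113 and NAint191, against 121, 180 and 245 CPM in EU60, EU78 and EU620, the highest of the 31 clusters in 6 of 6 plants. The cluster was picked for this high level and the gene as higher in NAint, so nothing is read from the gap between the populations there. The leading genes of these 642 cells included PaChr13.282 and PaChr1.2695, which are also on the study's marker list for vascular tissues of the section, used below. Among named cell types the order depended on the plant. In epidermal cell 2, which held 35.3% of the invasive UMIs of the gene, it had 100.8, 34.1 and 452.8 CPM in NAint61, NAint113 and NAint191, and in phloem 2 it had 21.13, 4.302 and 892 CPM, the last from 54 cells. Chlorenchyma was the first named cell type in the European plants, with 58.0 ± 29.6 CPM, while differentiating vasculature was last in both populations, with 16.591 ± 17.66 CPM in NAint and 1.59 ± 1.380 CPM in EU.

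**Figure D2:**
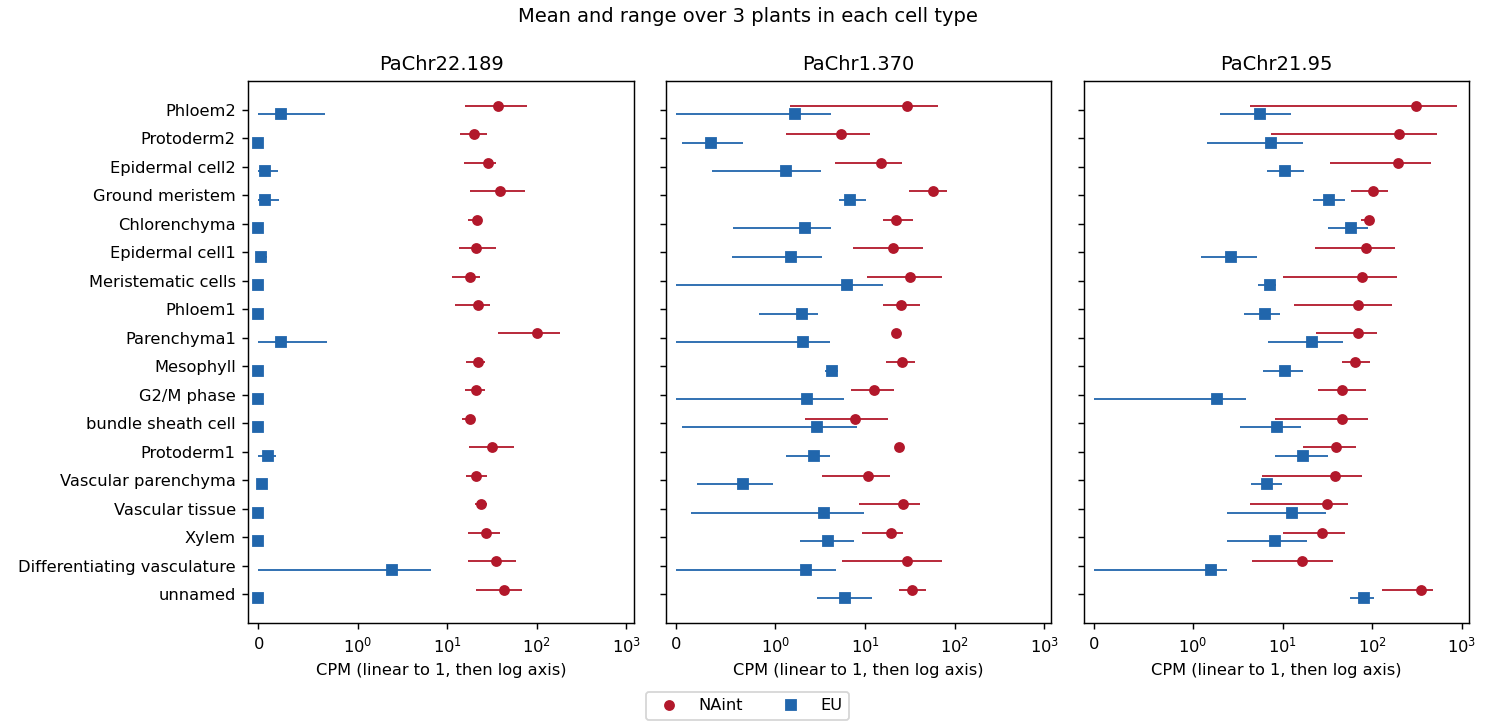
Mean CPM of each member over the cells of a type (points) and the range over the 3 plants of a population (lines), with NAint in red and EU in blue, on an axis that is linear up to 1 and logarithmic above it. PaChr22.189 stands between 17.9 and 100.97 CPM in all named invasive cell types and near 0 in the European ones, the mean of PaChr1.370 peaks in ground meristem in both populations, though EU620 was higher in meristematic cells, and PaChr21.95 ranges most widely between plants.

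Differences between tissues were tested within plants, with the cells of a tissue set against all other cells of the same plant (edgeR quasi-likelihood test, plant as block, Benjamini-Hochberg adjustment over all genes). Calls required an adjusted p below 0.05 together with a log2 fold change above 1 or below -1. Of the 21 pairs of member and tissue, 4 were called. The 1 pair called higher was in ground meristem, where 4.76% of all genes were called higher, and 3 pairs were called lower, as were 8.77% of all pairs of gene and tissue.

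PaChr1.370 rose in ground meristem and fell in vascular parenchyma. In ground meristem the level was 2.35, 6.58 and 2.48 times that of the rest in NAint61, NAint113 and NAint191 and 7.90, 10.7 and 1.12 times that of the rest in EU60, EU78 and EU620. It was higher there in 6 of 6 plants, with a log2 fold change of 1.84 ± 0.37 (SE, adjusted p = 0.00700). In vascular parenchyma it had 9.79, 3.31 and 19.02 CPM, against 15.64, 14.2 and 37.3 CPM in the rest of NAint61, NAint113 and NAint191. The European plants EU60, EU78 and EU620 had 0.828, 0.215 and 0.980 CPM there, against 1.82, 0.750 and 4.98 CPM in the rest. The gene was lower in 6 of 6 plants, by a log2 fold change of -1.21 ± 0.22 (SE, adjusted p = 0.00106), where 10.9% of all genes were called lower. Both calls were made under each of the 13 alternatives tried. In the epidermis its log2 fold change was -0.38 (adjusted p = 0.0325), which is under the fold required. In parenchyma it was -0.13 (adjusted p = 0.589), but grouping cells by their own highest marker score gave 1.01 (adjusted p = 0.0177), of the opposite sign and past both thresholds.

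PaChr21.95 fell in vascular tissue and in vascular parenchyma, as named here. The rest they were set against includes the unnamed cells, where its mean was highest. In vascular tissue it had 29.3, 8.75 and 82.7 CPM, against 91.2, 26.1 and 234.6 CPM in the rest of NAint61, NAint113 and NAint191. In EU60, EU78 and EU620 it had 5.139, 3.51 and 10.99 CPM there, against 10.9, 8.65 and 30.2 CPM in the rest. The ratio to the rest lay between 0.322 and 0.473 in all 6 plants, however different their levels, and the log2 fold change was -1.46 ± 0.09 (SE, adjusted p = 1.01e-05), where 4.62% of all genes were called lower. This call was made under each of the 13 alternatives. In vascular parenchyma the ratio lay between 0.248 and 0.599, with a log2 fold change of -1.13 ± 0.17 (SE, adjusted p = 0.000216). That call was lost when cells were grouped by their own highest marker score (-0.44, adjusted p = 0.581) and when doublets were kept (-0.95, adjusted p = 0.000140).

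In other tissues the values of PaChr21.95 depended on NAint191. In its epidermis the gene had 339 CPM, against 127 CPM in the rest of the plant, and 11001 of its 17773 UMIs lay there, while in the other 5 plants the epidermis lay at 0.419 to 0.767 times the rest. In parenchyma NAint191 was the only plant with a lower level than the rest, 107 against 223 CPM, while the ratio was 1.10 and 2.37 in NAint61 and NAint113 and 3.329, 7.49 and 2.10 in EU60, EU78 and EU620. The log2 fold change over all plants was 0.73 (adjusted p = 0.0902) in parenchyma and -0.21 (adjusted p = 0.660) in epidermis. Without NAint191 it was 1.12 (adjusted p = 0.00108) in parenchyma, 1.28 (adjusted p = 0.00453) in ground meristem and -1.08 (adjusted p = 0.00166) in meristem, all past both thresholds, against 0.93 (adjusted p = 0.0434) in ground meristem and -0.89 (adjusted p = 0.00355) in meristem with it. Without EU60 the value in meristem was -1.01 (adjusted p = 0.00227), also past both. Grouping cells by their own marker score gave 1.28 (adjusted p = 0.00562) in parenchyma and 1.48 (adjusted p = 0.0154) in ground meristem, and DESeq2 gave 1.01 (adjusted p = 0.0106) in ground meristem.

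No tissue was called for PaChr22.189. In parenchyma it had 103, 27.7 and 32.0 CPM, against 39.5, 16.57 and 27.0 CPM in the rest of NAint61, NAint113 and NAint191, a log2 fold change of 0.51 over all plants (adjusted p = 0.0635) and of 0.20 without NAint61 (adjusted p = 0.487). In meristem it had 23.1, 11.2 and 19.8 CPM, against 42.5, 17.2 and 27.8 CPM in the rest of these plants, and none of the 35 European UMIs. The log2 fold change there was -0.80 (adjusted p = 0.00549), which is under the fold required, in a comparison where the median of all genes lay at -0.26, or at -0.15 with the size factors of DESeq2.

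**Figure D3:**
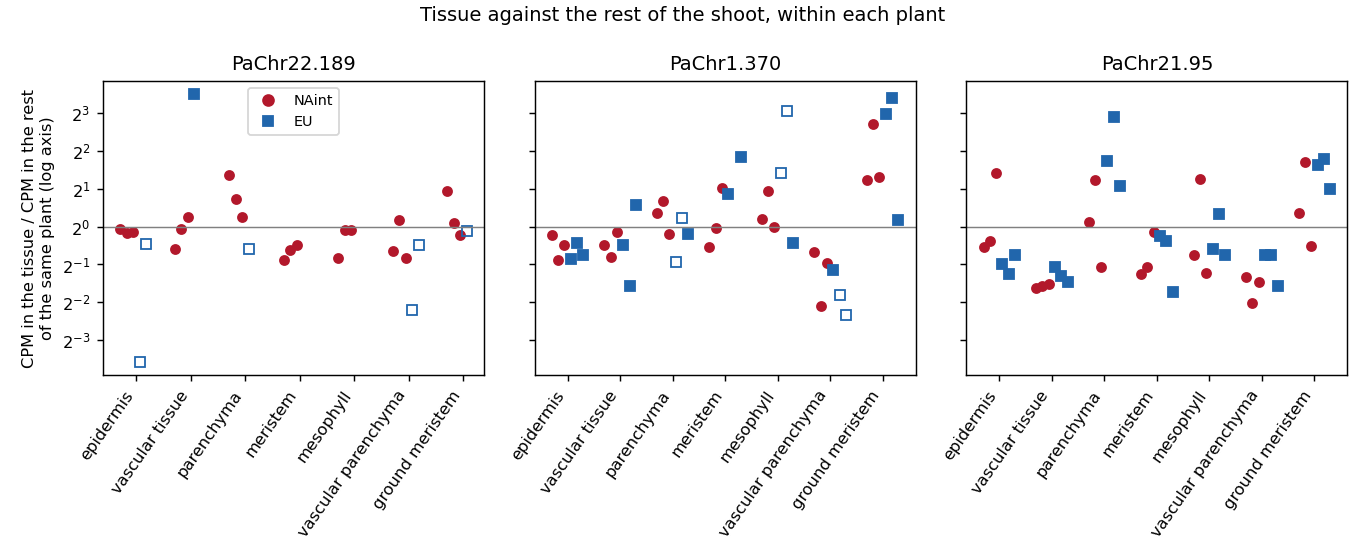
Ratio of the CPM of a tissue to that of the other cells of the same plant (log axis, 1 marked by a line) for each member and tissue, with NAint plants as red circles and EU plants as blue squares; open symbols rest on fewer than 10 UMIs in the tissue, and ratios with no UMI in the tissue or 3 or fewer in the rest are not drawn. All 6 plants lie above 1 for PaChr1.370 in ground meristem and below 1 for PaChr21.95 in vascular tissue, where they range from 0.322 to 0.473.

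Whether a tissue difference differed between the populations was tested with an interaction term. On simulated counts for the epidermis this fit missed many changes of 1.5 and 2 log2 units, so a pair that was not called may still differ. None of the 21 member and tissue pairs was called by edgeR or DESeq2, with 2 and 3 of them at an unadjusted p under 0.05, as were 3.261% and 2.02% of all pairs of gene and tissue, and edgeR called 1 gene in all over the 7 tissues, 0.00301% of those tested in mesophyll and 0.0% in the others. The smallest p was that of PaChr21.95 in parenchyma, where the tissue difference was 1.77 log2 units smaller in NAint than in EU plants, an interaction of -1.77 ± 0.40 (SE, adjusted p = 0.922). It passed the threshold without NAint113 (-2.23, adjusted p = 0.0332), without EU620 (-2.10, adjusted p = 0.000212) and without a filter on low counts (-1.76, adjusted p = 0.0454). The interaction was -2.69 ± 0.69 for PaChr22.189 in vascular tissue (adjusted p = 1), where the European side rests on 26 UMIs in the tissue and 9 in the rest, and -0.98 without EU60. For PaChr21.95 in epidermis it was 1.23 ± 0.53 (adjusted p = 0.996) and 0.59 without NAint191.

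A list of 17 further genes that the study's marker tables annotate as lipid transfer proteins gives the setting for PaChr21.95. The list was drawn from markers found in these samples, so its tissue pattern is partly what placed genes on it. In the epidermis 15 of the 17 rose and 1 fell, with a median log2 fold change of 3.45, against -0.01 over all genes, of which 6.04% were called higher. In vascular tissue 13 of 17 fell, in parenchyma and in ground meristem 15 each, in mesophyll 15, in vascular parenchyma 12 and in meristem 10, and none rose in any of these 6 tissues. Over all genes 5.93% fell in parenchyma, 2633 of 33105 in ground meristem, 3536 of 33184 in mesophyll and 3658 of 33210 in meristem. PaChr21.95 was thus outside the epidermal majority, as its level in the epidermis was not called, and it shared the lower levels in vascular tissue and vascular parenchyma. PaChr23.169, which has the same best Arabidopsis hit, rose in the epidermis by 3.63 ± 0.22 on the log2 scale (SE, adjusted p = 9.55e-06). The 1 gene that fell there was PaChr21.94, which directly precedes PaChr21.95. Its log2 fold change was -3.58 ± 0.37 (SE, adjusted p = 0.000305), from 164 UMIs over all plants. Between the populations edgeR called 0 of the 17, with 5 at an unadjusted p under 0.05, as were 10.0% of all genes. DESeq2 called PaChr23.169 higher in NAint by 4.06 on the log2 scale (adjusted p = 0.00339). The median log2 fold change of the 17 (edgeR) was 0.11, against 0.04 over all genes.

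PaChr23.169, picked from the list because it shares its best Arabidopsis hit with PaChr21.95, also differed between the batches. It had 68.8, 9.34 and 287 CPM in NAint61, NAint113 and NAint191, against 5.40, 3.21 and 212.98 CPM in EU60, EU78 and EU620. In this gene, too, the plants of batch 2 were the highest of both populations and NAint113 was the lowest of the invasive plants. The other genes of the list were not alike in this. PaChr10.1228 was also highest of its population in NAint191 and EU620, at 646 and 1192 CPM, while PaChr15.251 was lowest there, at 32.3 and 16.4 CPM. The part of the batch in the levels of PaChr21.95 was not tested beyond the ratios within batches and the fit with the batch label given above.

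For each member the genes with the most similar levels were found over 42 sums of plant and tissue, as Pearson's r of log2 CPM. These sums share libraries and the split between populations, so r is given as a description. PaChr22.189 was most like PaChr24.240, PaChr24.82 and PaChr24.218, all on the B chromosome, with r of 0.983, 0.982 and 0.980. Within the 21 invasive sums r was 0.526, 0.586 and 0.490 for them. PaChr1.370 was most like PaChr9.1275, PaChr7.1583_PaChr7.1584 and PaChr11.384, with r of 0.889, 0.885 and 0.865, and PaChr21.95 was most like PaChr1.1713, PaChr6.1238 and PaChr11.774, with r of 0.904, 0.862 and 0.848. Among the members themselves r was 0.773 between PaChr22.189 and PaChr1.370, 0.664 between PaChr22.189 and PaChr21.95 and 0.798 between PaChr1.370 and PaChr21.95. Within the invasive sums it was 0.158, 0.405 and 0.826 for these pairs, in the same order, and within the European sums it was -0.130, -0.159 and 0.414.

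In the section of NAint61 the members kept the order of its single cells but lay further apart. The section held 43513204 counts in 78619 segmented cells, areas drawn around single cells in the image that can hold parts of more than 1, with a median of 371 counts. PaChr21.95 had 10814 counts there, 248.5 CPM in the section against 75.9 CPM in the NAint61 single cells, a ratio of 3.2727 with a 95% counting interval of 3.17 to 3.38. PaChr22.189 had 170 counts, 3.907 CPM in the section against 41.7 CPM in the single cells, a ratio of 0.0938 (0.0799 to 0.109). PaChr1.370 had 14 counts, 0.322 CPM against 15.06 CPM, a ratio of 0.0214 (0.0116 to 0.0360). The ratio was 0.989 for the B chromosome gene PaChr24.43, 1.08 for PaChr24.240, 1.32 for PaChr24.82 and 9.132 for PaChr24.218. The intervals cover counting error only, and the assay, the batch label, the tissue piece and the cells caught cannot be told apart in these ratios.

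The other lipid transfer genes named above differed more between the assays than PaChr21.95. PaChr21.94, at 0.401 CPM in the single cells of NAint61, had 4597 counts or 106 CPM in the section, and PaChr23.169 had 2058 CPM in the section against 68.8 CPM in the single cells. Next to PaChr22.189, PaChr22.188 had 26.9 CPM in the section and 0.147 CPM in the single cells of NAint61. Of the segmented cells with at least 100 genes, 13.7% of those with PaChr21.95 also held PaChr21.94, against 3.39% of the others, with median depths of 841 and 440 counts.

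PaChr21.95 was patchy in the section. Moran's I, a measure of how alike neighbouring cells are that is near 0 for a random layout, was 0.218 over the 6 nearest segmented cells, against a median of 0.0780 and a 90th percentile of 0.103 over 16499 genes with at least 500 counts, and it exceeded that of 98.5% of them. It was 0.0762 for PaChr22.189 with its 170 counts and 0.102 for PaChr1.370, whose 14 counts give it little meaning. PaChr21.94 and PaChr23.169 reached 0.3003 and 0.480.

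**Figure D4:**
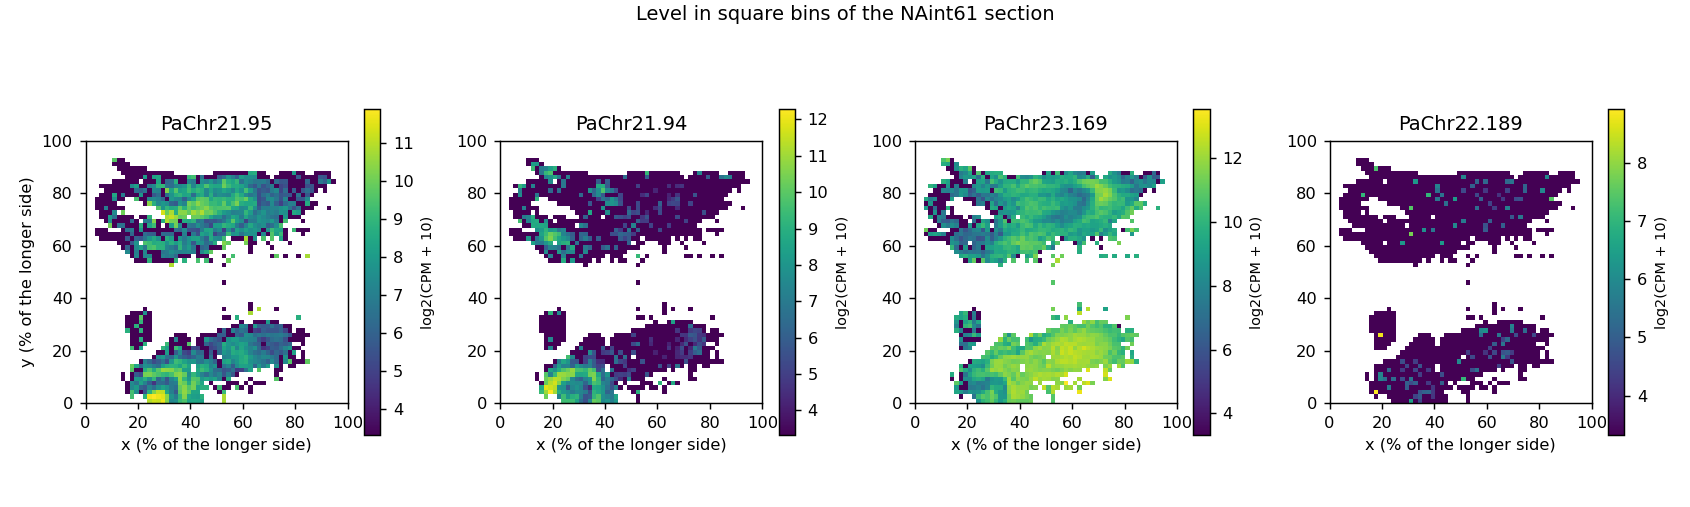
Level (log2 of CPM + 10) in square bins of the section of NAint61 that hold at least 1000 counts, with both axes in percent of the longer side of the image; each panel has its own colour scale. PaChr21.95 is high in a band along the upper piece of tissue and at the lower left of the lower piece, PaChr21.94 is high at the left of both pieces, PaChr23.169 is widespread, and PaChr22.189, with 170 counts, is scattered.

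To place the genes in the section, the 10% of segmented cells with the highest share of counts on a marker list were set against the rest, for 9 lists of the study's section clusters. The markers had been found in this section, and PaChr21.95, itself a marker of the cluster 13 vascular tissues, was left out of its list. In the cells high for that list PaChr21.95 had 821 CPM, against 201 CPM in the rest, a ratio of 4.09 (3.912 to 4.27). For the list of cluster 15, named vascular tissue and holding PaChr21.94, the ratio was 2.06 (1.97 to 2.164), and for sclerenchyma of cluster 7 it was 1.275 (1.2008 to 1.35). The ratio was below 1 for the other 6 lists, with 0.874 for pith, 0.830 for protoderm, 0.710 for epidermis, 0.630 for epidermal cells and mesophylls, 0.380 for sclerenchyma of cluster 14 and 0.297 for epidermal cells.

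Since PaChr21.95 was placed on the list of cluster 13 from this same section, its ratio for that list describes the section and supports nothing further. When the single-cell marker lists were used on the section instead, the ratio was 1.08 (1.02 to 1.145) for vascular tissue, 1.07 (1.01 to 1.133) for vascular parenchyma, 0.985 (0.932 to 1.04) for differentiating vasculature, 0.932 (0.861 to 1.01) for phloem 1, 0.707 (0.649 to 0.769) for phloem 2, 0.581 (0.524 to 0.643) for bundle sheath cells and 0.479 (0.438 to 0.522) for xylem. Its place in the section with respect to cells named vascular thus depended on the list. For PaChr22.189 the pith list stood out in the section, with 7.99 CPM against 3.44 CPM in the rest, a ratio of 2.32 (1.51 to 3.473) that rests on 30 counts. The intervals of its other 8 section lists included 1. With the single-cell lists the ratio was 1.92 (1.165 to 3.02) for phloem 2 and 1.89 (1.09 to 3.099) for the cluster of unknown type, and 0.718 (0.351 to 1.32) for parenchyma 1, its first cell type in the single cells. The phloem 2 list shares markers with the pith list, such as PaChr12.68, so the ratios for these lists are not independent. PaChr1.370 had at most 4 counts in the cells high for any of these lists, and no ratio is given for it.

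**Figure D5:**
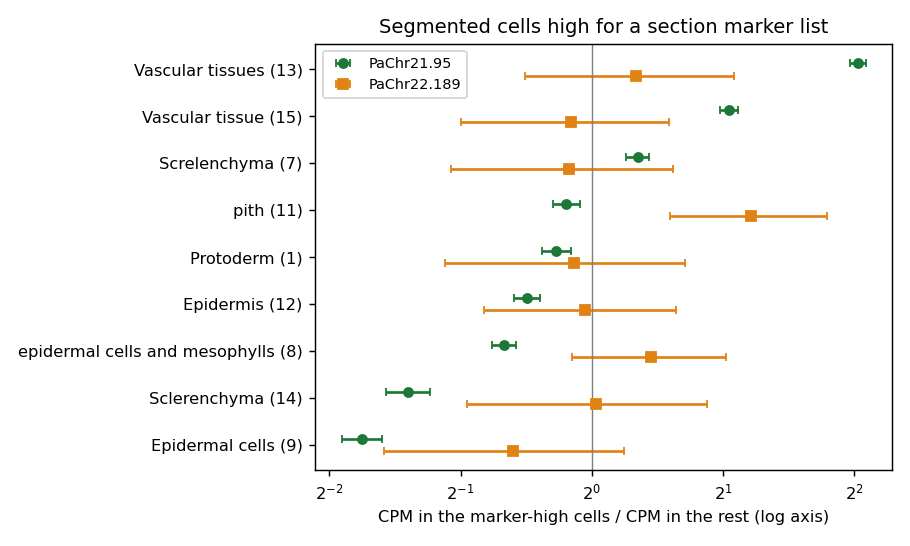
Ratio of CPM in the 10% of segmented cells highest for each section marker list to CPM in the rest (log axis), for PaChr21.95 (green) and PaChr22.189 (orange), with 95% counting intervals and cluster numbers in brackets. PaChr21.95 reaches 4.09 for vascular tissues (13), and PaChr22.189 reaches 2.32 for pith (11).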

How the data were processed

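UMI counts per gene were made by the authors with Cell Ranger 8.0 and handled with Scanpy, per the submitters' processing notes, and the deposited single-cell and section tables hold whole counts that are not normalized. Reads of the single cells were aligned to a published chromosome-level assembly of the reed that the authors had slightly modified, no genome of that build was used here, and the gene numbers of the files were matched to those of the study by chromosome and number. The members and all lists were chosen with earlier results of these data known. The genes named are the 3 members, their neighbours by gene number (3 on each side), 18 lipid transfer genes with PaChr21.95, 4 B chromosome genes for scale, and the 3 genes with the highest Pearson's r to each member.

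Cells with at least 500 genes and at most 30% of UMIs on scaffolds were kept. A doublet caller marked 9 cells by its own threshold, which was taken as not having worked, so the study's share of cells was removed from the top of its scores (7321 cells). Cells were clustered on 3000 variable genes without the members (resolution 0.8, or 1.2 as an alternative) and named from up to 10 markers per list. Counts were summed per plant, or per plant and tissue, genes with at least 10 counts in some sum were tested with the quasi-likelihood test of edgeR 4.0.16 in R 4.3.3, and DESeq2 1.42.0 was an alternative. The whole-shoot fit had sequencing reads per cell, averaged by library, as its covariate, after the study. SEs were derived from the F statistic and are approximate. On simulated counts with known changes, the whole-shoot fit called 78 of 100 genes changed by 4 log2 units and 97 of 100 changed by 8. It also called 9 unchanged genes. These counts were drawn from the fitted spread of each gene, and only genes above a count limit were changed, so the shares need not hold for the data. In the data the B chromosome gene PaChr24.43, with a log2 fold change of 8.72, was not called by edgeR (adjusted p = 0.328). The population by epidermis interaction fit called 36 of 100 genes changed by 1.5 log2 units, 69 of 100 changed by 2 and 6 unchanged ones. Each library was 1 plant per the labels. In the whole-shoot fit p-values measure the spread of levels between these plants. In the tissue and interaction fits, with plant as block, they measure how the tissue difference within a plant varies from plant to plant. Intervals are exact 95% Poisson intervals and cover counting error only. Python 3.11.15, scanpy 1.11.5, scipy 1.17.1, scikit-learn 1.9.0 and matplotlib 3.10.9 were used.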

Additional observations from a re-analysis of the deposited data

How the results depend on the processing

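The whole-shoot contrast rests on 3 plants a group, and low counts limit PaChr22.189 in EU plants and PaChr1.370 in the section. The counts of genes called there were unstable: 6 genes were higher in NAint, against 2 without a covariate, 2 with the batch label as a factor, 2 with the replicate number as a block, 533 with DESeq2 and 0 to 3 without 1 plant, and 1 gene was lower, against 0, 0, 0, 408 and 0 to 0 under these settings. The replicate numbers were not taken as pairs, since same-numbered plants had correlations of 0.0531, 0.577 and 0.683 of their deviations, the first under 0.1. In every fit, alternatives included, each member had a positive whole-shoot fold change, and with the replicate block it was 8.35, 3.41 and 2.49 on the log2 scale for PaChr22.189, PaChr1.370 and PaChr21.95. The members were chosen as higher in NAint in these same libraries, so the sign is a description and supports nothing further.

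A fit on NAint plants only, chosen after seeing the data, called 1563 genes in vascular tissue (2811 with all plants) and 2017 in ground meristem (4208 with all plants), and it gave PaChr21.95 the opposite sign in epidermis (0.42) and in parenchyma (-0.15), with neither value called. The interaction called 1 gene, against 6 without a filter, 22 with DESeq2 and 2 to 205 without 1 plant, the 205 being without EU620. Of the member pairs 0 were called by population, against 1 without a filter and 0 to 1 without 1 plant, and 4 to 7 were called against the rest without 1 plant, the 7 being without NAint191. Without thinning, the mean shares of cells were 17.34% in NAint and 0.0580% in EU for PaChr22.189, 9.11% and 1.51% for PaChr1.370, and 16.8% and 6.26% for PaChr21.95.

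In the section, Moran's I with 12 neighbours was 0.0403 for PaChr22.189 and 0.0508 for PaChr1.370, and without segmented cells under 100 genes the value was 0.0328 for PaChr1.370. With the top 5% of segmented cells, the ratio for PaChr21.95 was 4.68 for vascular tissues, 0.676 for epidermal cells and mesophylls, 0.618 for pith, 0.257 for epidermal cells and 0.228 for sclerenchyma of cluster 14, and for PaChr22.189 it was 0.285 for sclerenchyma of cluster 7 and 0.171 for that of cluster 14. The causes of these changes were not tested.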
